A study of Mus musculus with 4 samples.

Results

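Arg1, Slc7a2, Nos2, Ass1, Odc1, Chil3, Retnla and Acod1 are genes of arginine metabolism and of macrophage activation. They were taken by symbol from the gene table of a single-cell RNA study of mouse skin, 8 of 32285 genes, and each had at least 1 UMI (a unique molecular identifier, the tag that counts 1 captured transcript) in all 4 libraries. All mice were female C57BL/6J aged 6 to 8 weeks, and each library pooled neck and ear skin of 3 mice, so mice within a library cannot be told apart. One library came from untreated skin, a pair from oxazolone-treated skin taken on day 10 and on day 16, and one from skin treated with MC903 and taken on day 9. Oxazolone is a contact hapten: 100 µL at 3% in acetone and mineral oil sensitised the skin, and 100 µL at 1.0% was given every other day from 7 days later. MC903 is calcipotriol, a vitamin D analog, given daily as 1 nmol in 100 µL of ethanol. A vehicle control is not analysed here, so the compound cannot be told apart from its solvent. Each group holds 1 library, so no comparison between libraries has a replicate check and no p-value is given. All intervals are exact 95% intervals and cover counting error only.

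Arginine enters macrophages through cationic amino acid transporters, of which Slc7a2 (CAT2) is the inducible one. Inside the cell, Nos2 turns arginine into nitric oxide and citrulline, Arg1 turns it into ornithine and urea, Odc1 makes the polyamine putrescine from ornithine, and Ass1 takes the first step in remaking arginine from citrulline. Arg1 and the secreted proteins Chil3 (Ym1) and Retnla (FIZZ1) are textbook markers of macrophages activated by the type 2 cytokines IL-4 and IL-13, while Nos2 and Acod1, which makes itaconate, are textbook markers of macrophages activated by microbial products or interferon.

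The genes lie on different chromosomes in the GENCODE M21 annotation of GRCm38. Arg1 lies at chr10:24915221-24927484 and Chil3 at chr3:106147554-106167564, both on the minus strand. The others lie on the plus strand: Slc7a2 at chr8:40862396-40922308, Ass1 at chr2:31470207-31520672, Odc1 at chr12:17544794-17551505, Nos2 at chr11:78920787-78960254, Retnla at chr16:48842551-48844461 and Acod1 at chr14:103046977-103056573. None of them overlapped another gene of the deposited gene table. Chil3 shares 77 of the 451 words of 50 bases in its last 500 transcript bases with its paralog Chil4, so part of its signal could not be assigned by sequence alone. Arg1 and Arg2, Slc7a2 and Slc7a1, and Retnla and Retnlg shared no such word.

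RefSeq promoter sequences were matched for 5 of the 8 genes. On both strands of the bases from 250 to 61 before the start of the RefSeq entry, 4 words were searched. Retnla, Acod1 and Chil3 are shown because they held a match. Except for Chil3, that start lies inside the GENCODE span given above, so the distances below are not distances to the GENCODE start. The words were TTC and GAA with 4 free bases between them (a STAT6-type word, in 4.57% of 32544 promoters of the same length), TTGCNNAA (a C/EBP-type word, in 7.78%), GGNNNTTCC (an NF-kB-type word, in 11.5%) and TGANTCA (an AP-1-type word, in 5.202%). Capitals mark the matches, the sequences run 5′ to 3′ on the gene's strand, and a match is a description of letters, not a site.
Retnla, GRCm38.p6 chr16:48842359-48842548, plus strand: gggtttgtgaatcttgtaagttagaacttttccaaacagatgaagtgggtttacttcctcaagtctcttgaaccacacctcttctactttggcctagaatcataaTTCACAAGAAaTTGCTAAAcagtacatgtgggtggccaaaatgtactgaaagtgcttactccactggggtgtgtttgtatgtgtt
Acod1, GRCm38.p6 chr14:103046762-103046951, plus strand: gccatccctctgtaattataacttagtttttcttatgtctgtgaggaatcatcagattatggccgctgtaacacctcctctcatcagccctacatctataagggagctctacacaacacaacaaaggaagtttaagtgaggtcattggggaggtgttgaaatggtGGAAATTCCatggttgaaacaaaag
Chil3, GRCm38.p6 chr3:106167625-106167814, minus strand: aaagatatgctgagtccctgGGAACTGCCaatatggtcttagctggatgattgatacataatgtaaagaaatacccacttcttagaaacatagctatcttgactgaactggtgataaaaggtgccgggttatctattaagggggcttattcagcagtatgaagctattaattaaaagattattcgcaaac
Retnla held the STAT6-type and the C/EBP-type word next to each other, starting 145 and 134 bases before the start. Acod1 held the NF-kB-type word 85 bases before the start. Chil3 held it 230 bases before the start, read on the other strand. Ass1 and Odc1 held none of the 4 words in this window.

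Cells were assigned by markers: a cell entered a gate with a UMI of at least 3 of its 6 markers and a lead of at least 2 markers over any other gate. After filtering, 7702 cells were left from untreated skin, 8301 and 7909 from days 10 and 16 of oxazolone, and 3843 from MC903, with medians of 9064 to 14639 UMIs per cell. Between 14.3% and 18.0% of cells had at least 3 markers of a gate but no lead of 2, and were set aside as mixed. This stands in for a doublet caller. A cell with a lead of 2 stayed in its gate even where it also held markers of another gate. Any pair of libraries shared 5 to 16 cell barcodes. The gate of macrophages and monocytes (6 markers, Csf1r, Cd68 and Adgre1 among them) held 131, 1571, 1010 and 151 cells, and all 6 markers had UMIs in every library. Its median depth differed, at 9522, 13845, 22307 and 24187 UMIs per cell in the same order. The 6 neutrophil markers together stood in this gate at 83.9, 371, 1538 and 579 CPM (UMIs per 1000000 UMIs of the gate), with S100a9 and Retnlg at 0 in the untreated library. Of the cells in this gate, 131, 1281, 243 and 113 had a UMI of at most 2 of the 6 neutrophil markers. Most day 16 cells of the gate thus held more than 2 of them. The untreated and oxazolone day 10 files name Cell Ranger 7.2.0 and the other files 8.0.0, so this version cannot be told apart from those libraries.

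In macrophages and monocytes, Arg1, Slc7a2, Ass1, Chil3, Retnla and Acod1 were at least 2-fold higher on oxazolone day 10 than in untreated skin, and all 8 genes were at least 2-fold higher on oxazolone day 16 and with MC903. A gene counts as called at 2-fold with at least 30 UMIs in the pair. For oxazolone day 10 this is 6 of 8 genes higher and 0 lower, where 8.26% of all measured genes were higher and 7.87% lower. For oxazolone day 16 it is 8 of 8 higher, where 8.78% of all measured genes were higher and 21.2% lower. For MC903 it is 8 of 8 higher, where 9.34% were higher and 8.37% lower. These 3 comparisons share the untreated library, whose gate held 131 cells. The median log2 ratio of the 8 genes was 2.62, 5.41 and 5.08, beside 0.033, -0.298 and 0.014 over all measured genes. From day 10 to day 16 of oxazolone, 7 of 8 were higher and 0 lower, where 5.6% of genes were higher and 23.7% lower, and Ass1 was the exception. With MC903, 2 of 8 genes, Arg1 and Slc7a2, were at least 2-fold lower than on oxazolone day 16 and 0 were higher, where 2.75% of genes were lower and 11.5% higher.

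**Figure D1:**
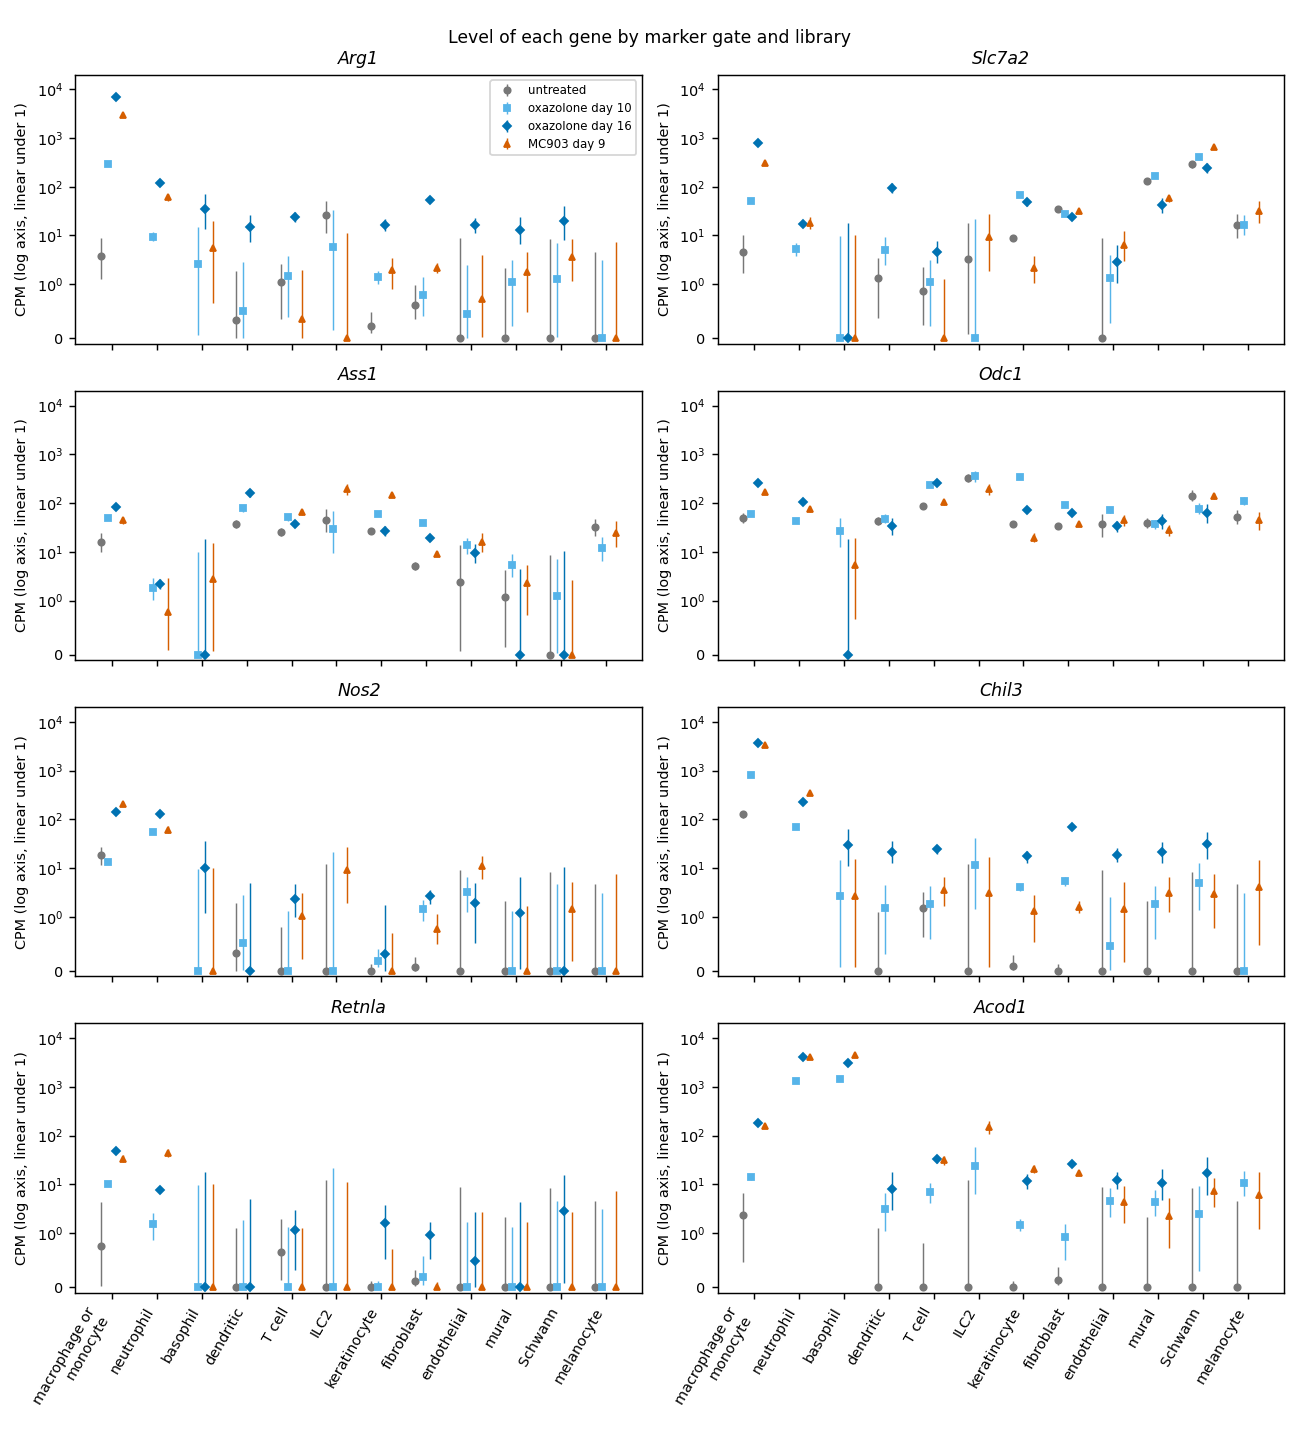
Level of each gene in CPM (log axis, linear under 1) by marker gate, for gates with at least 20 cells in a library; points are libraries and bars exact 95% Poisson intervals of the summed UMIs. Arg1 and Chil3 stood highest in the macrophage gate of the 3 treated libraries, Acod1 in neutrophils and basophils, and Slc7a2 was also present in Schwann and mural cells of every library.

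Slc7a2, the inducible arginine transporter, stood in macrophages and monocytes at 4.62 CPM in untreated skin, 51.03 on oxazolone day 10, 801 on oxazolone day 16 and 308 with MC903. The log2 ratio to untreated skin was 3.47 (2.34 to 4.91) on day 10, 7.44 (6.32 to 8.88) on day 16 and 6.06 (4.93 to 7.51) with MC903. The untreated value rests on 6 UMIs in 4 cells. With MC903 the 5 cells with most Slc7a2 held 638 of 1187 UMIs, or 53.7%, and on day 16 they held 6.73%. Macrophages were not the main holder of Slc7a2 in every library: they held 0.288% of its UMIs in untreated skin, 18.5% on day 10, 54.4% on day 16 and 26.4% with MC903. Fibroblasts held the largest gated share in untreated skin, at 46.4%, with 34.8, 28.1, 24.2 and 32.0 CPM across the 4 libraries, which is less than a 2-fold spread. On day 10 keratinocytes held the largest share, at 34.6%.

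Schwann cells, the glia that wrap peripheral nerves, held Slc7a2 at 286 CPM in untreated skin, 412 on oxazolone day 10, 244 on day 16 and 658 with MC903. The MC903 value was higher than the untreated one by 1.20 on the log2 scale (0.93 to 1.49), where 6.15% of genes measured in Schwann cells were at least 2-fold higher. The macrophage markers stood at 3.64 to 13.8 CPM in Schwann cells of the 4 libraries, with 0 to 4 of the 6 at 0. In mural cells, the contractile cells around vessels, Slc7a2 stood at 133, 170, 41.7 and 57.8 CPM in the same order. The ratio of MC903 to untreated skin in mural cells was -1.20 (-1.52 to -0.88), where 6.69% of genes were lower. Only 35 mural and 31 Schwann cells were gated on oxazolone day 16, so no ratio was taken there. In keratinocytes Slc7a2 was 9.05 CPM in untreated skin, 66.7 on day 10, 47.8 on day 16 and 2.11 with MC903. Both oxazolone libraries stood above untreated skin and MC903 below it, at a log2 ratio of -2.10 (-3.12 to -1.24) from 11 UMIs in 117 cells, where 18.3% of genes were lower.

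Arg1, the arginase that makes ornithine, stood in macrophages and monocytes at 3.85 CPM (1.25 to 8.98) in untreated skin, 289 on oxazolone day 10, 6816 on oxazolone day 16 and 2896 with MC903. All 5 Arg1 UMIs of untreated macrophages lay in 1 cell. The log2 ratio to untreated skin was 6.23 (5.01 to 7.85), 10.79 (9.57 to 12.41) and 9.56 (8.33 to 11.18). Day 16 was above day 10 by 4.56 (4.52 to 4.60), and MC903 was below day 16, at -1.24 (-1.26 to -1.21). The 4 libraries thus stood in the order untreated, day 10, MC903, day 16, with no overlap of counting intervals.

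The difference lay both in how many cells held Arg1 and in how much each held. Cells with at least 10 Arg1 UMIs were 0% of untreated macrophages, 8.15% on day 10, 72.1% on day 16 and 37.1% with MC903. Cells with 100 or more were 0%, 1.02%, 49.7% and 22.5%. The median cell stood at 0 CPM in all libraries but day 16, where it stood at 5510 CPM. Thinned to 1000 UMIs per cell, which removes the difference in depth, cells with Arg1 were 0%, 9.88%, 70.2% and 36.4%. Among melanocytes, which should lack Arg1, that share was 0% in all 4 libraries, and in mural cells it was at most 0.649%. On day 16 these gates held only 10 melanocytes and 35 mural cells. Other non-myeloid gates differed from these. Arg1 was at least 2-fold higher on day 16 than in untreated skin in fibroblasts, keratinocytes, T cells and endothelial cells. In these gates 8.22%, 10%, 6.34% and 7.21% of all measured genes were higher.

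**Figure D2:**
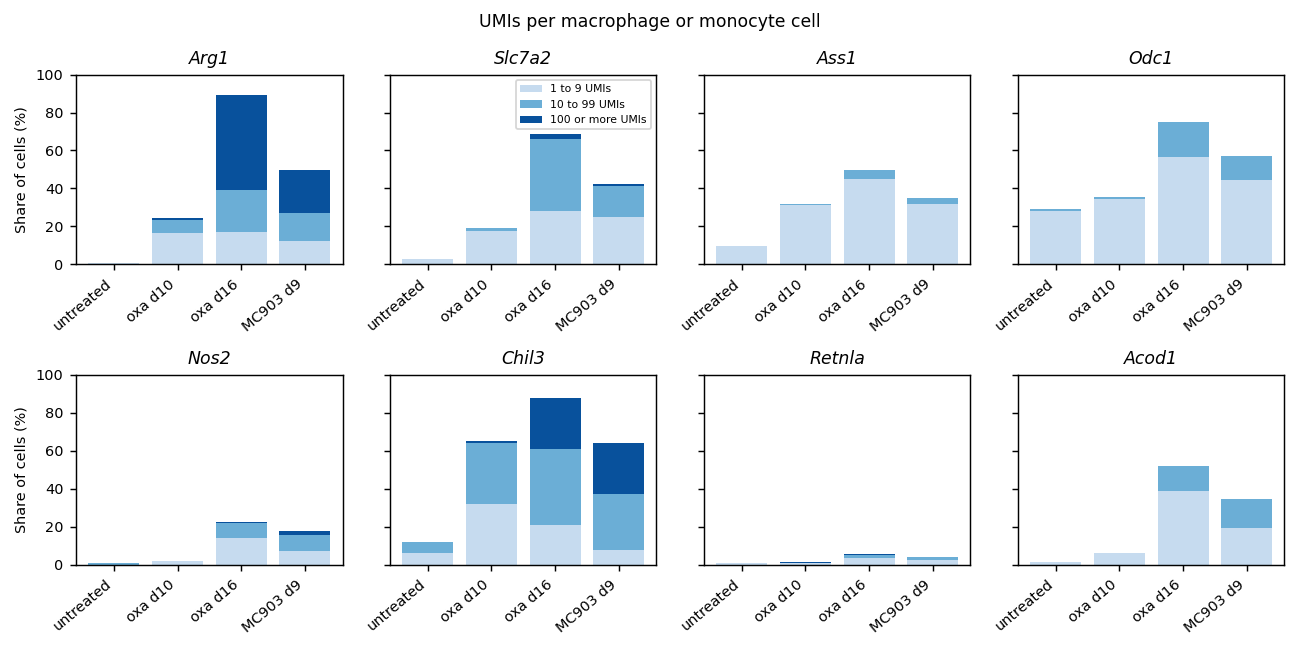
Share of macrophage and monocyte cells (%) by the number of UMIs of each gene, for the 4 libraries; the space above a bar is cells without a UMI, and cells were not thinned. Arg1 reached 100 or more UMIs in 49.7% of cells on oxazolone day 16 and 22.5% with MC903, while Nos2 and Retnla were seen in few cells of any library.

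Macrophages and monocytes held 7.58% of all Arg1 UMIs in untreated skin, 67.3% on day 10, 61.2% on day 16 and 80.9% with MC903. Most of the rest in treated skin lay in mixed cells, at 28.6%, 36.5% and 16.9%. In neutrophils Arg1 stood at 9.46, 121 and 60.2 CPM in the treated libraries, which is 1.77% to 3.27% of the level in the gate where it was highest. The macrophage markers in neutrophils stood at 130 to 221 CPM in those libraries, against 2756 to 2802 in macrophages, and their part in the neutrophil value was not tested. With MC903, 142 of the 153 neutrophil Arg1 UMIs lay in 1 cell. In untreated skin ILC2 (type 2 innate lymphoid cells), a resident lymphocyte, stood highest among gates with at least 20 cells, at 26.2 CPM (11.3 to 51.7) from 8 UMIs, and in MC903 skin 39 such cells held 0 UMIs, which allows up to 11.4 CPM.

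Odc1, which makes putrescine from ornithine, stood in macrophages and monocytes at 50.04 CPM in untreated skin, 60.2 on oxazolone day 10, 259 on day 16 and 169.5 with MC903. Untreated skin and day 10 overlapped in their counting intervals, with a log2 ratio of 0.27 (-0.09 to 0.65). Day 16 was above untreated skin by 2.37 (2.02 to 2.75) and MC903 by 1.76 (1.39 to 2.15).

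Odc1 was high in other cells than Arg1. In ILC2 it stood at 331, 357, 368 and 194 CPM across untreated skin, day 10, day 16 and MC903, with 47, 47, 8 and 39 cells. In T cells it stood at 87.4, 231, 256 and 104 CPM, so both oxazolone libraries were above untreated skin (log2 ratios 1.40 and 1.55, where 8.65% and 6.34% of genes were higher). In keratinocytes it stood at 37.2 CPM in untreated skin, 341 on day 10, 71.5 on day 16 and 19.6 with MC903, and keratinocytes held 60.8% of all Odc1 UMIs on day 10. The day 10 log2 ratio in keratinocytes was 3.20 (3.11 to 3.29), with 13.9% of genes higher. Keratinocytes of day 10 differed in make-up: the 5 hair-shaft markers found in the gene table summed to 209 CPM, against 30.9 in untreated skin, 119 on day 16 and 15.4 with MC903. Day 10 keratinocytes with a UMI of any of these markers (719 cells) stood at 509.5 CPM of Odc1, and those with none (576 cells) at 85.8 CPM. In untreated skin the same split gave 41.7 and 35.1 CPM. The part of hair-shaft cells in the day 10 value was not tested. From day 10 to day 16, Odc1 was lower in keratinocytes (-2.25, where 11.4% of genes were lower) and in endothelial cells (-1.10, where 6.15% were).

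Ass1, which remakes arginine from citrulline, stood in macrophages and monocytes at 16.2 CPM in untreated skin, 48.7 on day 10, 81.1 on day 16 and 44.3 with MC903. Their log2 ratios to untreated skin were 1.59 (0.97 to 2.29), 2.33 (1.71 to 3.02) and 1.45 (0.80 to 2.18), the smallest of the 8 genes on day 16 and with MC903. Keratinocytes held 51.5% of Ass1 UMIs in untreated skin, at 26.1 CPM, with 58.6 on day 10, 26.9 on day 16 and 147 with MC903. In keratinocytes MC903 was thus above both oxazolone libraries, and its log2 ratio to untreated skin was 2.49 (2.35 to 2.64), where 5.02% of genes were higher. Over day 16 it was 2.45 (2.12 to 2.79), where 10.2% were higher. Fibroblasts stood at 5.12, 38.7, 18.7 and 9.17 CPM, highest on day 10, at a log2 ratio of 2.92 (2.65 to 3.20), where 8.5% of genes were higher. In fibroblasts MC903 was below day 16, at -1.03, where 11.2% of genes were lower. In dendritic cells Ass1 stood at 37.9, 77.5, 158 and 10.99 CPM, the last from 3 UMIs in 12 cells. The day 10 ratio was 1.03 in dendritic cells, where 6.45% of genes were higher, 2.49 in endothelial cells (-0.10 to 7.84, from 30 UMIs against 1), where 9.67% were, and -1.48 in melanocytes (-2.53 to -0.49), where 6.28% were lower.

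Nos2, the inducible nitric oxide synthase, stood in macrophages and monocytes at 18.5 CPM in untreated skin, 13.4 on day 10, 139 on day 16 and 210.2 with MC903. All 24 untreated UMIs lay in 1 cell, and 168 of 299 on day 10 lay in 1 cell. With MC903 the 5 cells with most Nos2 held 545 of 811 UMIs, or 67.2%, and on day 16 they held 15.9%. The MC903 level thus rests largely on a few of the 151 cells. Cells with a Nos2 UMI were 1 of 131, 31 of 1571, 226 of 1010 and 27 of 151. The log2 ratio to untreated skin was -0.47 (-1.07 to 0.20), 2.91 (2.34 to 3.56) and 3.51 (2.92 to 4.16). Without the cell with most Nos2 in each library, chosen after seeing the data, untreated macrophages held 0 UMIs. The 3 ratios were then 1.32, 5.83 and 5.99 against the floor of 3 UMIs, given without an interval for counting error. The sign on day 10 thus turned with 1 cell.

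Neutrophils also held Nos2, at 55.5 CPM on day 10, 129 on day 16 and 61.4 with MC903, with no UMI in the 14 neutrophils of untreated skin. On day 10 neutrophils held 52.6% of all Nos2 UMIs and macrophages 29.5%. On day 16 the shares were 41.7% and 31.4%, and with MC903 they were 9.06% and 47.1%. Neutrophil Nos2 was spread over 258 cells on day 10 and 1043 on day 16, where the 5 cells with most held 9.74% and 4.37% of it. In neutrophils, 7 of the 8 genes were higher on day 16 than on day 10, where 9.06% of genes were higher, and Ass1 did not reach 2-fold. With MC903, Arg1, Ass1 and Nos2 were lower in neutrophils than on day 16, where 4.38% of genes were lower, and Retnla was higher, where 31.8% were, with 107 of its 113 UMIs in 1 cell.

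Chil3, a chitinase-like secreted protein, stood in macrophages and monocytes at 127 CPM in untreated skin, 797 on day 10, 3686 on day 16 and 3293 with MC903. The log2 ratio to untreated skin was 2.65 (2.43 to 2.88), 4.86 (4.64 to 5.09) and 4.70 (4.47 to 4.93). MC903 and day 16 differed by -0.16 (-0.19 to -0.14), under the 2-fold used here. Cells with at least 10 Chil3 UMIs were 6.11%, 33.0%, 66.8% and 56.3% of the gate. Macrophages and monocytes held 59.0% to 78.0% of all Chil3 UMIs in each library, and neutrophils 2.92% to 5.22% in the treated ones.

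Retnla, a secreted resistin-like protein, stood in macrophages and monocytes at 0.77 CPM in untreated skin, from 1 UMI, 10.4 on day 10, 47.8 on day 16 and 33.9 with MC903. Few cells held it: 1 of 131, 19 of 1571, 57 of 1010 and 6 of 151. On day 10, 143 of 232 UMIs lay in 1 cell. The log2 ratio to untreated skin was 3.75 (1.26 to 9.06). Without the highest cell of each library it was 0.78, given without an interval. Untreated macrophages then held 0 UMIs and the floor of 3 UMIs was used. With MC903, 73 of 131 UMIs lay in 1 cell, and the same step left a ratio of 2.71 against that floor in place of 5.46. In neutrophils with MC903, 107 of 113 Retnla UMIs lay in 1 cell. Of all Retnla UMIs, macrophages and monocytes held 1 of 29 in untreated skin and 232 of 305 on day 10. They held 1104 of 2988 on day 16 and 131 of 326 with MC903. Most Retnla UMIs thus lay outside this gate in every library but day 10.

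Acod1, the itaconate-making enzyme, stood in macrophages and monocytes at 2.31 CPM in untreated skin, from 3 UMIs, 14.0 on day 10, 185 on day 16 and 160.2 with MC903. The log2 ratio to untreated skin was 2.60 (1.04 to 4.89), 6.32 (4.78 to 8.60) and 6.12 (4.56 to 8.40). Yet macrophages and monocytes held only 1.88% to 2.97% of all Acod1 UMIs in any library. In neutrophils Acod1 stood at 2174 CPM in the 14 untreated cells, 1325 on day 10, 4139 on day 16 and 4030 with MC903, and neutrophils held 49.3% to 86.4% of its UMIs. The neutrophil markers stood in macrophages at 83.9, 371, 1538 and 579 CPM, and their part in macrophage Acod1 was not tested. In cells with a UMI of at most 2 of the 6 neutrophil markers, a limit chosen after seeing the data, all 8 genes remained at least 2-fold higher on day 16 (243 cells) and with MC903 (113 cells) than in untreated skin (131 cells). With at most 1 such marker, 7 of 8 were on day 16 (28 cells, without Retnla) and 7 of 8 with MC903 (56 cells, without Ass1, at 0.81), against 127 untreated cells. No share of all genes called is given for these restricted cells, so both sets of counts stand without a background. The part of neutrophil RNA in macrophage levels was not tested by these limits.

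Basophils, which are rare in skin and known for IL-4, also held Acod1. The level was 1443 CPM on day 10 (63 cells), 3084 on day 16 (26 cells) and 4457 with MC903 (36 cells), and 3 basophils of untreated skin held 6 UMIs. The neutrophil markers stood in basophils of the treated libraries at 510, 725 and 274 CPM, against 132894, 133187 and 102220 in neutrophils. Basophil markers in the same cells stood at 8951, 12202 and 6689 CPM. Thinned to 1000 UMIs, 49.2%, 76.0% and 69.4% of basophils held Acod1, against 0% of mural cells in all 4 libraries.

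Counts of the genes called in other gates follow, with sums of myeloid markers given only for fibroblasts of day 16 and of untreated skin. In keratinocytes, 6 of 6 measured genes were higher on day 10 than in untreated skin (13.9% of all genes), 4 of 6 on day 16 (10%) and 2 of 4 with MC903 (5.02%), where 1 of 4, Slc7a2, was lower (18.3%). In fibroblasts, 3 of 4 were higher on day 10 (8.5%), 5 of 7 on day 16 (8.22%) and 3 of 6 with MC903 (9.04%). In T cells, 1 of 2 genes was higher on day 10 (8.65%), 4 of 5 on day 16 (6.34%) and 2 of 3 with MC903 (8.07%). In endothelial cells, 1 of 2 was higher on day 10 (9.67%), 2 of 3 on day 16 (7.21%) and 0 of 1 with MC903 (5.48%). Arg1, Chil3 and Acod1 were among the genes higher on day 16 in keratinocytes, fibroblasts and T cells. The endothelial genes higher on day 16 were Arg1 and Chil3. Fibroblasts of day 16 held 53.3 CPM of Arg1, 68.9 of Chil3 and 25.8 of Acod1, and in the same cells the macrophage markers summed to 145 CPM and the neutrophil markers to 704 CPM. In untreated fibroblasts these marker sums were 119.5 and 74.5 CPM. The part of myeloid RNA in these low levels, and in the counts of each gate named here, was not tested.

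**Figure D3:**
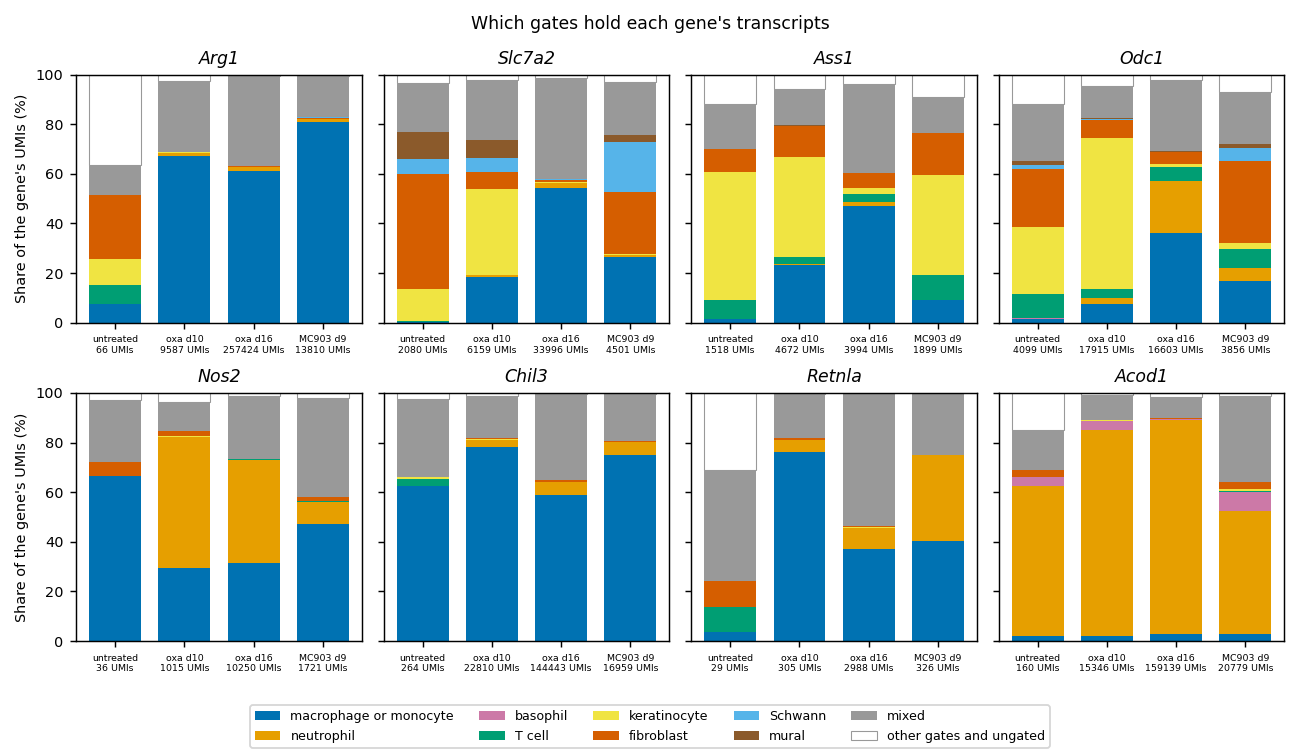
Share (%) of each gene's UMIs held by each marker gate, stacked per library, with the gene's total UMIs under each bar; mixed cells carry markers of several gates. Macrophages and monocytes held most gated Arg1 and Chil3 UMIs in the 3 treated libraries, neutrophils most Acod1, and keratinocytes 60.8% of Odc1 on oxazolone day 10.

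Macrophages and monocytes were split by genes of maturation. C1q cells had a UMI of at least 2 of C1qa, C1qb and C1qc, complement genes of tissue macrophages, and numbered 69, 1042, 612 and 82. Of the others, Ly6c2 Ccr2 cells had both monocyte genes and numbered 21, 376, 250 and 37, and 41, 153, 148 and 32 cells had neither. Arg1 on day 16 stood at 6167 CPM in C1q cells, 7408 in Ly6c2 Ccr2 cells and 9101 in the rest. With MC903 it stood at 2607, 3082 and 3604 CPM. Arg1 was thus present at less than a 2-fold spread in all 3 subsets of both libraries. On day 10 it stood at 282, 230.1 and 531 CPM.

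Chil3 stood higher in Ly6c2 Ccr2 cells than in C1q cells of every library: 410.5 against 61.7 CPM in untreated skin, 1169 against 652 on day 10, 4982 against 2864 on day 16 and 6858 against 1794 with MC903. Retnla went the other way in the oxazolone libraries: all 232 UMIs of day 10 lay in C1q cells, 143 of them in 1 cell, and day 16 gave 62.6 CPM in C1q cells and 14.0 in Ly6c2 Ccr2 cells. With MC903 Retnla stood at 35.4 and 5.44 CPM, from 80 and 5 UMIs, but 73 of the 80 lay in 1 cell, so the order there rests on that cell. Nos2 stood in C1q and in Ly6c2 Ccr2 cells at 2.53 and 33.9 CPM on day 10, 121 and 151 on day 16, and 107 and 236 with MC903. Acod1 stood at 9.52 and 22.5 CPM on day 10, 148 and 197 on day 16, and 106 and 234 with MC903. Within C1q cells alone, 8 of 8 genes were higher on day 16 and with MC903 than in untreated skin, where 9.7% and 11% of genes were. On day 10 the same cells gave 6 genes higher, where 9.13% were, and 1 lower, Nos2, where 8.6% were, and all 24 untreated Nos2 UMIs lay in 1 C1q cell.

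**Figure D4:**
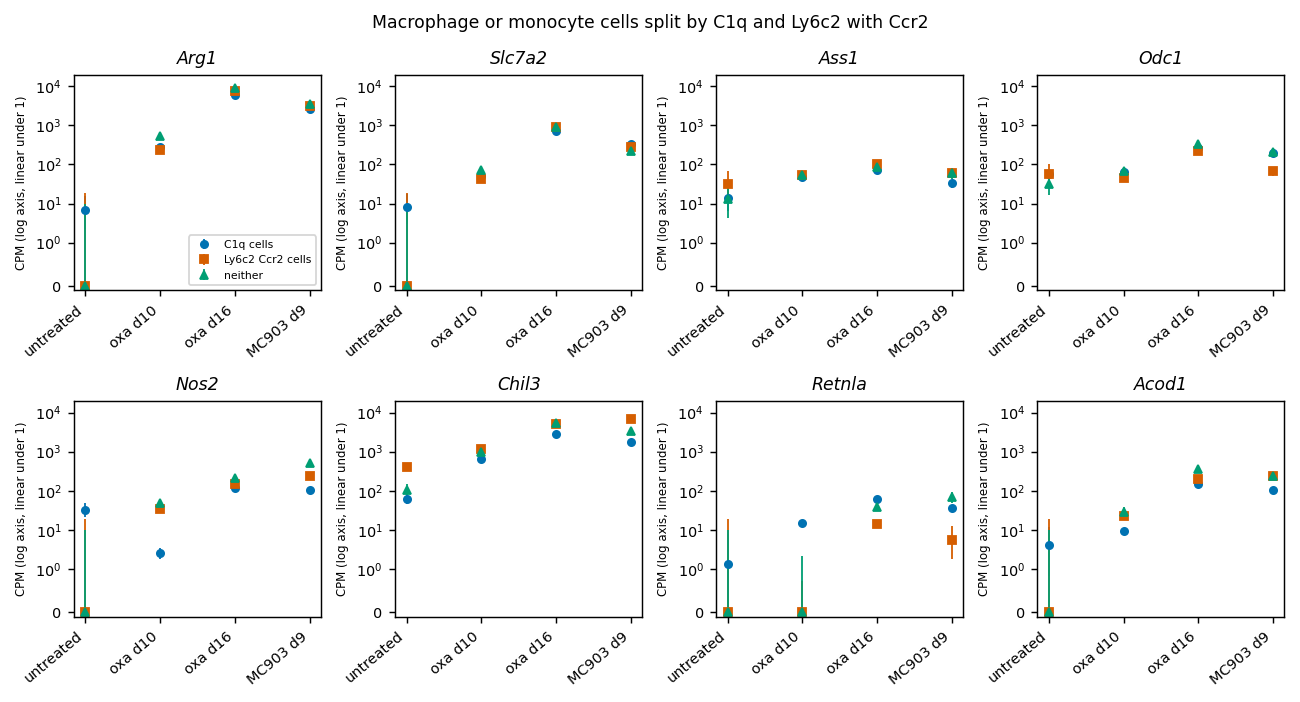
Level of each gene in CPM (log axis, linear under 1) in 3 subsets of macrophages and monocytes, by library; bars are exact 95% Poisson intervals, often smaller than the points. Chil3 stood higher in Ly6c2 Ccr2 cells than in C1q cells in all 4 libraries, and Arg1 on oxazolone day 16 spanned less than 2-fold between subsets.

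Whether the genes were seen in the same cells was read after thinning macrophages and monocytes to 5000 UMIs each, which left out 43 cells on day 10, 28 on day 16 and 3 with MC903. On day 16 Arg1 was seen in 79.9% of 982 cells. Slc7a2 was seen in 67.6% (64.2 to 70.9) of cells with Arg1 and in 11.2% (7.13 to 16.4) of cells without. Slc7a2 kept this pattern on day 10, at 30.4% and 6.97%, and with MC903, at 56.1% and 7.32%. Odc1 was seen in 51.8% of cells with Arg1 and 25.9% without on day 16, and Nos2 in 17.7% and 3.05%. Of the 145 day 16 cells with Nos2, 139 also held Arg1. Acod1 was seen in 87 of the 145 cells with Nos2 and in 25.6% of cells without. Retnla showed no such difference by Arg1 on day 16, at 3.57% (2.38 to 5.11) and 3.05% (1.13 to 6.51). Cells of 1 library are not replicates, so these shares describe the libraries.

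**Figure D5:**
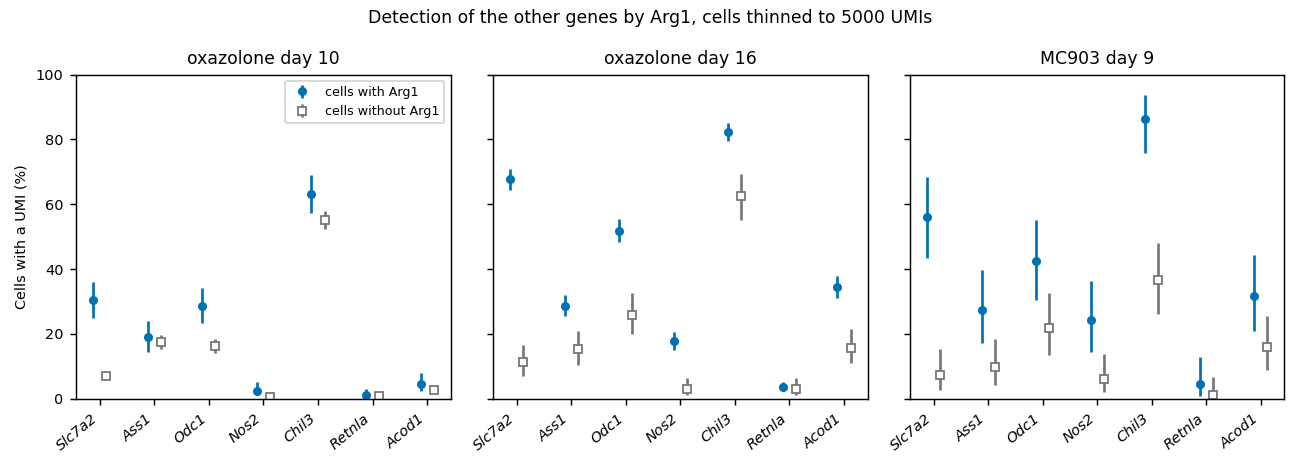
Share (%) of macrophage and monocyte cells with a UMI of each other gene, among cells with (filled) and without (open) Arg1, after thinning to 5000 UMIs; bars are exact 95% binomial intervals. Slc7a2 was seen in 67.6% of day 16 cells with Arg1 and 11.2% without, and Retnla had overlapping intervals in each of the 3 treated libraries plotted.

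Other genes of these pathways were read in the same gate, from 7 lists, on day 10, day 16 and with MC903 over untreated skin. Of all measured genes there, 8.26%, 8.78% and 9.34% were at least 2-fold higher and 7.87%, 21.2% and 8.37% lower. Of 8 measured genes of arginine supply and the urea cycle, 1, 2 and 2 were at least 2-fold higher on day 10, day 16 and with MC903 and 0, 0 and 1 lower. Arg2, the mitochondrial arginase, stood at 10.01 CPM in untreated skin, 39.0 on day 10, 158 on day 16 and 127 with MC903. Gatm, which uses arginine to make a creatine precursor, was higher on day 16 by 1.40 on the log2 scale, and Slc7a7, an arginine exporter, was lower with MC903, at -1.33. The list medians were 0.02, -0.07 and 0.10, beside 0.033, -0.298 and 0.014 over all genes.

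Of 13 polyamine genes, 2, 2 and 2 were higher and 1, 3 and 0 lower, with list medians of -0.02, -0.19 and 0.01, near those of all genes. Smox, which oxidises spermine, stood at 37.7, 75.5, 177 and 243 CPM, and Azin2, which frees Odc1 from its inhibitor, at 2.31, 6.18, 19.5 and 19.4 CPM. Sms, which makes spermine, was lower on day 10, at -1.38, and Amd1, which supplies aminopropyl groups, was lower on day 16, at -1.98. Of 5, 5 and 4 measured genes of nitric oxide synthesis, 0, 1 and 1 were higher and 1, 1 and 1 lower, with medians of -0.05, -0.39 and 0.17. Ddah1, which clears an inhibitor of nitric oxide synthases, stood at 53.9, 22.3, 6.02 and 14.3 CPM, so it was lower in every treated library. Gch1, which starts the synthesis of the cofactor of Nos2, was higher with MC903 by 1.24. None of the 4, 4 and 3 measured genes from ornithine to proline reached 2-fold.

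Of the chitinase and resistin family, 2 of 2 measured genes were higher on day 10 and 2 of 3 on day 16. One of these was Retnlg, which also serves here as a neutrophil marker and had 0 UMIs in untreated macrophages. Its ratios of 4.48-fold and 4.95-fold were therefore taken against the floor of 3 UMIs. The lower limits of their intervals were 1.85 and 2.00 on the log2 scale. Chil4 had 0, 0, 78 and 0 UMIs, and it shares words with Chil3 as given above.

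Of 14 alternative activation genes, 13, 12 and 13 were measured, of which 3, 7 and 6 were higher and 5, 3 and 1 lower. Ccl24, an eosinophil chemokine, stood at 171 CPM in untreated skin, 158 on day 10, 5697 on day 16 and 2316 with MC903. Tgm2, a transglutaminase, was higher by 2.26, 4.38 and 4.17, and Pdcd1lg2 (PD-L2) by 4.03 on day 16 and 2.69 with MC903. Mgl2, a lectin of dermal macrophages and dendritic cells, was lower in all 3 treated libraries, at -3.16, -3.56 and -2.13. Irf4, a transcription factor, was lower on day 10 and day 16, at -2.35 and -3.18, and stood at -0.83 with MC903. Of 13 measured classical activation genes, 3, 8 and 8 were higher and 3, 0 and 0 lower. Cxcl9, an interferon-induced chemokine, was higher by 5.03, 4.02 and 4.66, and Ptgs2 (COX-2) by 5.12 on day 16 and 5.50 with MC903. Il6, an inflammatory cytokine, was lower on day 10 and higher on day 16 and with MC903, at -2.34, 1.15 and 2.15. Nfkbiz was lower on day 10, at -1.54. Both lists thus held genes that were higher on day 16 and with MC903, with medians of 1.22 and 0.96 for alternative and 1.45 and 2.15 for classical activation. On day 10 the medians were -0.12 and 0.22.

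The 3 genes most like each member were found by Pearson correlation of log2(CPM + 1) over 36 pairs of gate and library with at least 50 cells, among 14545 genes. These points share libraries and depth, so the values are a description. Arg1 was most like Chil3 (0.95), Mmp13 (0.94) and Ccl24 (0.92), and Chil3 like Arg1, Ccl12 (0.92) and F7 (0.91). Retnla was most like Arg1 (0.91), Chil3 (0.90) and F7 (0.89). Nos2 was most like Cd14 (0.92), Oasl1 (0.91) and Fcgr4 (0.90), and Acod1 like Ccl3 (0.91), Clec4e (0.90) and Hcar2 (0.90). Ass1 was most like Dnajc15 (0.82), Dera (0.81) and Ddx39 (0.81), Slc7a2 like Slc6a8 (0.75), Adamtsl5 (0.73) and Etv1 (0.72), and Odc1 like Zfp459 (0.63), Atxn1 (0.58) and Mthfd1l (0.58).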

How the data were processed

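The files deposited are unnormalized counts of UMIs per gene and barcode, from 10x Genomics 3′ v3.1 libraries. The authors processed them with Cell Ranger 8.0 and mm10 per the submitters' processing notes, whereas the file headers name 7.2.0 for 2 libraries and 8.0.0 for the other two. Whether introns were counted is not given in the sources used here. A library held 73054242 to 119717836 UMIs. Kept barcodes had 300 or more genes and no more than 15% of their UMIs from mitochondrial genes, which left out 53 to 407 barcodes. UMIs were summed per gate and library and scaled to CPM. Ratios were taken where both libraries held at least 50 cells, with a floor of 3 UMIs for a count of 0. Levels carry exact Poisson, shares Clopper-Pearson and ratios conditional binomial intervals, which cover counting error only. Doublets were not called, and mixed cells were left out of the gates. The alternatives were a stricter and a looser gate, mixed cells joined to a gate, all barcodes, median-of-ratios scaling, 5% of the average profile removed, no UMI minimum and thinning to 2000 UMIs. The members, lists, markers and rules were chosen with earlier results of these data known. Named genes were the 8 members, at most 3 measured genes of largest ratio per list and treated library, and the 3 genes most like each member. Ratios were tested on simulated data. Python 3.11.15 with numpy 2.4.6, scipy 1.17.1 and pandas 2.3.3 was used.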

Additional observations from a re-analysis of the deposited data

Results flagged for a closer look

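Several genes were at least 2-fold higher in one gate and at least 2-fold lower in another between the same libraries. None of these differences between gates was tested, since each group holds 1 library. For Ass1 on oxazolone day 10 over untreated skin, the log2 ratio was 1.03 in dendritic cells, 2.49 in endothelial cells, from 1 untreated UMI and with an interval of -0.10 to 7.84, 2.92 in fibroblasts, 1.17 in keratinocytes and 1.59 in macrophages and monocytes, but -1.48 in melanocytes, from 26 and 14 UMIs. For Ass1 with MC903 over oxazolone day 16, it was 2.45 in keratinocytes, -1.03 in fibroblasts and -1.50 in neutrophils, the last from 2 UMIs with MC903. For Odc1 on oxazolone day 16 over day 10, it was 2.10 in macrophages and monocytes and 1.30 in neutrophils, against -2.25 in keratinocytes and -1.10 in endothelial cells. For Slc7a2 with MC903 over untreated skin, it was 6.06 in macrophages and monocytes and 1.20 in Schwann cells, against -2.10 in keratinocytes and -1.20 in mural cells.

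Barcodes left out by the filter on genes and mitochondrial UMIs also held 4 of the genes above their level in untreated skin, where 3 UMIs in such barcodes correspond to 22.6 CPM. Odc1 stood at 60.9 CPM in those of oxazolone day 10. In those of oxazolone day 16, Arg1 stood at 155 CPM, Chil3 at 142 CPM and Acod1 at 443 CPM.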

How the results depend on the processing

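The counts of genes at least 2-fold higher or lower in macrophages and monocytes stayed within 1.5 times of the value given under every alternative planned. A gate with a lead of 1 marker and one that takes in mixed cells are the same cells by construction, so they count as 1 alternative. Limits on neutrophil markers were chosen after seeing the data, first at most 1 and then at most 2 of 6, since the first left 28 cells on oxazolone day 16. For MC903 over oxazolone day 16, at most 2 markers gave 4 genes lower in place of 2 (Ass1 and Retnla joined Arg1 and Slc7a2). At most 1 gave 1 higher in place of 0 (Retnla, at 1.89), and Ass1 (-2.30) took the place of Arg1 among the genes lower. Arg1 then stood at 8.91 with MC903 and 9.73 on day 16 over untreated skin. The Retnla value rests on 56 cells against 28, and it was -1.16 with at most 2 markers, so its direction was not stable. At most 1 also took Ass1 with MC903 over untreated skin from 1.45 to 0.81. Odc1 on day 16 over day 10 went from 2.10 to 0.94, under 2-fold. Of the log2 ratios of single genes, 281 stayed within their counting interval, 76 moved outside it, and 0 of the called ones changed sign. Of the levels in this gate, 103 stayed and 57 moved. Of the shares of a gene's UMIs held by this gate, 71 stayed and 25 moved, 24 of them with a lead of 1 marker. These shares thus depend on the gate rule. Without the highest cell, also chosen after seeing the data, the 6 genes higher on day 10 held Nos2 in place of Retnla, both as lower bounds. Median-of-ratios scaling took Ass1 on day 16 over day 10 from 0.73 to 1.09. Depth limits the untreated library, where Arg1, Slc7a2, Retnla and Acod1 had 1 to 6 UMIs in macrophages. No paired analysis was possible because each group holds 1 library.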
